A study of Mus musculus with 12 samples.

Results

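The 12 libraries of this mouse brain RNA-seq series were regrouped by the reads of one gene, Gm11942 (ENSMUSG00000094344), a processed pseudogene placed on chromosome 4 by GENCODE M21 (GRCm38). Libraries were chosen by their CPM of this gene (its reads divided by all reads of the library, times 1000000). Those with Gm11942 at 10 CPM or more were called high, and those under 10 CPM low. The rule put 5 of the 12 libraries in the high group and 7 in the low group. The grouping was made from the reads themselves and is not a condition in the labels, and the genes Gm11942, Gm17511 and Cacng6 marked it from the start, so their difference between the groups is described here without a test.

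The mice, labelled as 3 months old, had been injected into the cerebral ventricles as newborns with PBS (control) or with rAAV, an adeno-associated virus used as a gene delivery vector, that encoded a collagen domain construct. Poly(A) RNA of frozen, pulverised tissue from one side of the brain was sequenced. Labels give 3 libraries to each of PBS female, PBS male, collagen domain female and collagen domain male. No strain, genotype or litter was given for any group, no vector without the construct was given, and the labels do not say that each library came from a separate mouse. The p-values therefore cover the spread between libraries, which may be technical. Libraries are named below by their labels, although the reads of 5 libraries went against a label. In 4 libraries the order of Xist, transcribed from the inactive X chromosome, and Ddx3y, a Y-linked gene, was opposite to the labelled sex, and in 4 the C1qtnf3 reads were on the other side of 1000 from the labelled treatment. C1qtnf3 is the mouse gene of the protein whose collagen domain the series title names. Of these 5 libraries, 2 were in the high group (the libraries labelled PBS male 1 and collagen domain male 3) and 3 in the low group (PBS female 2, collagen domain female 1 and collagen domain female 3). Totals ranged from 39272127 to 52323985 reads. The tissue is given as forebrain, and the mean log2(CPM + 1) of 15 cerebellum and hindbrain markers was 1.76 to 2.48 in 7 libraries and 4.31 to 5.06 in the other 5, of which 1 was high (collagen domain male 2) and 4 low.

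A processed pseudogene is a copy of a messenger RNA that was turned back into DNA and inserted elsewhere in the genome, without introns and usually without a promoter of its own. Rplp1 encodes P1, an acidic protein of the ribosomal stalk that helps recruit translation factors, and like many ribosomal protein genes it has many such copies in the mouse. Inbred mouse strains differ in which copies they carry and in many regulatory variants, and in a stretch of chromosome inherited together the levels of neighbouring genes can differ together between animals.

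Gm11942 and Gm17511 (chromosome 7) are copies of Rplp1 (chromosome 9), and short reads of one can match another. In GENCODE M21 the transcript of Gm11942 was 97.4% identical to the coding sequence of Rplp1 and kept the reading frame without an internal stop codon, and that of Gm17511 was 95.0% identical. Of the 271 windows of 75 bases, the read length, in Gm11942, 40 (14.8%) were identical to Rplp1. In Gm17511 this held for 26 of 268 windows (9.70%). How reads that match several copies were counted is not given in the sources used here, so the values of these genes are uncertain as to their source.

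Among the high libraries, Gm11942 had 27.9 CPM in PBS male 1, 27.4 in PBS male 2, 43.2 in collagen domain male 1, 39.3 in collagen domain male 2 and 33.1 in collagen domain male 3. In the low libraries it ranged from 0.910 to 2.12 CPM with a median of 1.66. The groups were far apart: the least of the high libraries was 12.9 times the greatest of the low ones, and the means were 34.2 ± 6.95 (SD, n = 5) and 1.57 ± 0.431 CPM (SD, n = 7). These values rest on 1159 to 1724 reads per high library and 42 to 106 per low library, and no library lay between 2.12 and 27.4 CPM, so the threshold of 10 CPM had no library near it. Within the high group, the 3 libraries labelled collagen domain (33.1 to 43.2 CPM) lay above both labelled PBS (27.4 and 27.9 CPM). Of the latter, PBS male 1 had 2675 C1qtnf3 reads, against its treatment label. Within the low group the range was 1.09 to 2.12 CPM for PBS and 0.910 to 1.89 CPM for collagen domain, which overlap.

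Gm17511 (ENSMUSG00000090460), the second Rplp1 copy, was 1.29 to 2.43 CPM in the high libraries and 0.0764 to 0.301 CPM in the low ones, and its lowest high library was 4.28 times its highest low library. It rested on few reads, 3 to 97 per library. Cacng6 (ENSMUSG00000078815, chromosome 7), which encodes the gamma-6 subunit of voltage-gated calcium channels, moved the opposite way. It was 0.876 to 1.40 CPM in the high libraries and 3.83 to 5.24 CPM in the low libraries, with means of 1.17 ± 0.242 (SD, n = 5) and 4.67 ± 0.571 (SD, n = 7), so the low mean was 3.98 times the high mean. For Gm17511 and Cacng6, as for Gm11942, no high library overlapped a low one. In RNA of whole tissue, fewer cells of a type and less RNA per cell cannot be told apart.

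**Figure D1:**
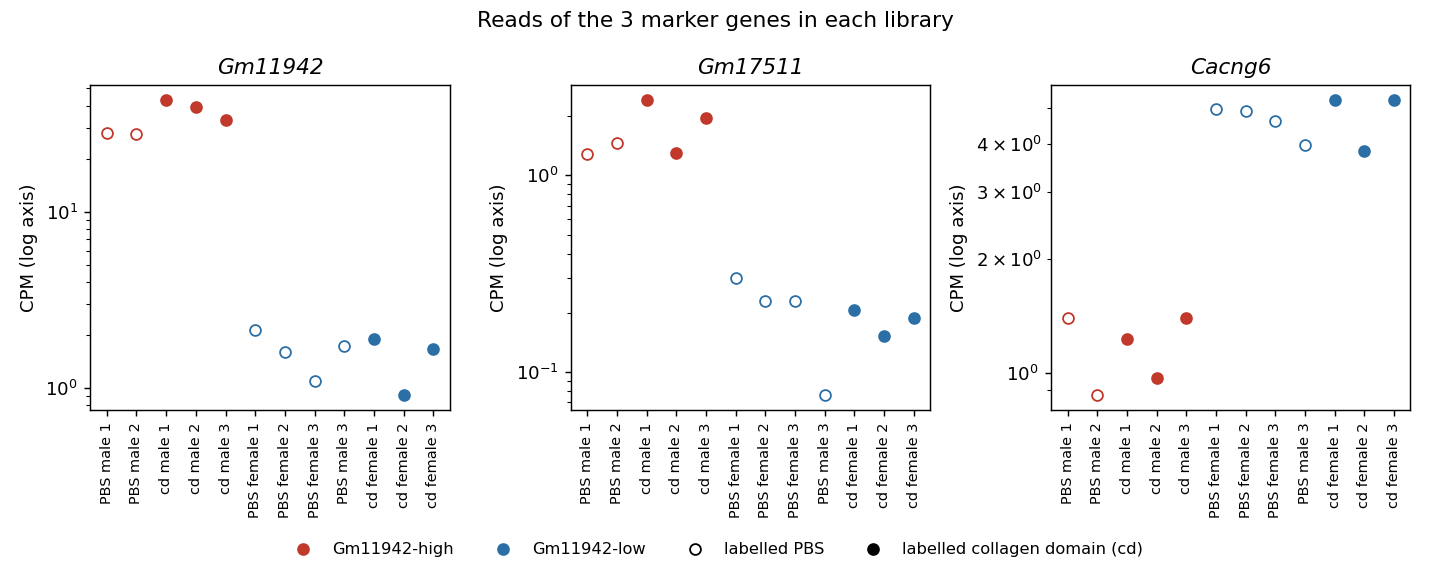
CPM (log axes) of Gm11942, Gm17511 and Cacng6 in each of the 12 libraries, 1 point per library; red points are the high and blue points the low libraries, open points are labelled PBS and filled points collagen domain (cd). Gm11942 is 27.4 to 43.2 CPM in the 5 high libraries and at most 2.12 CPM in the low ones, and Cacng6 shows the opposite order.

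Rplp1 itself did not follow the split. It was 376 to 587 CPM in the high libraries and 340 to 619 CPM in the low libraries, and its log2 difference, high minus low, did not pass the test (adjusted p = 0.999). Set against Rplp1 in the same library, Gm11942 reads came to 5.60 to 10.5% in the high libraries and 0.268 to 0.460% in the low ones. Gm10073 (chromosome 8), a copy that is 97.7% identical to Gm11942, also overlapped between the groups, at 16.1 to 25.5 CPM in the high and 15.7 to 30.8 CPM in the low libraries. A sequence search found 23 Rplp1-like genes in the annotation, these included, and 19 of them were in the count table. The 15 that were not tested for want of reads had at most 7 reads in any library. Of the 2 tested copies other than Gm11942 and Gm17511, Rplp1 counted among them, neither was called.

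The split crossed the labels unevenly. Of the 6 libraries labelled male, 5 were high, and of the 6 labelled female none was. By treatment label, 2 of 6 PBS and 3 of 6 collagen domain libraries were high. By the sex-linked reads the split was nearer to even, with 3 of 6 libraries that had more Ddx3y than Xist in the high group and 2 of the other 6. High libraries thus included PBS male 1 (648.7 CPM of Xist, 0.0222 of Ddx3y) and collagen domain male 3 (591.9 and 0.0226), and low libraries included PBS male 3 (0.331 and 88.1). By C1qtnf3 reads, 4 of the 6 libraries with 1000 reads or more were high and 1 of the 6 under 1000.

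High and low libraries were then compared across all 19145 genes that passed the filter on low counts, with edgeR's quasi-likelihood test and p adjusted by Benjamini-Hochberg over all of them. In that fit 7 genes (0.0366%) passed an adjusted p of 0.05, 4 higher and 3 lower in the high libraries. Of the 7, 3 were the markers, whose difference the choice of groups and markers fixed, so their passing is no result. The other 4 were 9330104G04Rik and Eps8l1, which were higher, and Exoc3l2 and Gm11677, which were lower. Of these 4, 3 lie on chromosome 7 and Gm11677 lies on chromosome 11, and the markers lie on chromosomes 4 (Gm11942) and 7 (Gm17511 and Cacng6). Chromosome 7 holds 1380 of the 19145 tested genes. At an unadjusted p under 0.05 the count was 493 genes (2.58%), 280 higher and 213 lower.

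The long non-coding RNA 9330104G04Rik (ENSMUSG00000097842) had 5.74, 5.16, 5.23, 4.65 and 5.12 CPM in PBS male 1 and 2 and collagen domain male 1, 2 and 3, against 2.60 to 3.51 CPM (median 2.79) in the low libraries. All 5 high libraries lay above all 7 low ones, and the difference was 0.82 ± 0.09 (SE) on the log2 scale (adjusted p = 0.00225). It passed under each of the 12 fits that left out 1 library. Eps8l1 (ENSMUSG00000006154), which encodes an EPS8-like protein that takes part in actin remodelling, had 9.31, 8.31, 10.5, 6.07 and 6.84 CPM in the same order of high libraries, and 1.5 to 3.92 CPM (median 2.17) in the low ones. The groups did not overlap and the log2 difference was 1.68 ± 0.24 (SE, adjusted p = 0.0246). Its call was lost (adjusted p 0.0523 to 0.0974) without any one of collagen domain female 3, collagen domain male 1 or 3, PBS female 2 or 3, or PBS male 1, 2 or 3, at log2 differences of 1.58 to 1.74.

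Exoc3l2 (ENSMUSG00000011263), an exocyst component-like gene, had 0.222, 0.237, 0.20, 0.401 and 0.316 CPM in the high libraries and 0.637 to 1.17 CPM (median 0.844) in the low ones. Every high library lay below every low library, with a log2 difference of -1.74 ± 0.22 (SE, adjusted p = 0.00856). Gm11677 (ENSMUSG00000081666, chromosome 11), another processed pseudogene, had 0.333, 0.355, 0.300, 0.401 and 0.338 CPM in the high libraries and 0.604 to 0.975 CPM (median 0.801) in the low ones. Its groups also stayed apart, at a log2 difference of -1.25 ± 0.16 (SE, adjusted p = 0.00856). Without PBS male 1 both missed the threshold (adjusted p = 0.0512 each, log2 differences of -1.67 for Exoc3l2 and -1.24 for Gm11677).

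The CPM ranges of the high and low libraries did not overlap for 54 of the 19145 tested genes (0.282%), with 36 high above low (0.188%) and 18 below (0.094%). With 5 against 7 libraries some genes separate by chance, so a lack of overlap alone is not a test. Chromosome 7 held 22 of the 54 and chromosome 9 held 10, and the other 22, 1 of them absent from the annotation, were spread over the remaining chromosomes. The 54 include the markers Gm11942 (chromosome 4), Gm17511 and Cacng6 (both chromosome 7), whose separation is no result. As shares of the tested genes, the genes without overlap came to 1.59% of 1380 on chromosome 7 and 0.925% of 1081 on chromosome 9. At an unadjusted p under 0.05 the shares were 5.22% on chromosome 7 and 6.01% on chromosome 9. Over the other autosomes, the X chromosome and the genes without a chromosome (each with 100 or more tested genes) these ranged from 0.713% to 3.87%. Genes on 1 chromosome are not independent, and no test was made of these shares. No genotypes were analysed here, so the part of linkage or genetic background in them was not tested.

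**Figure D2:**
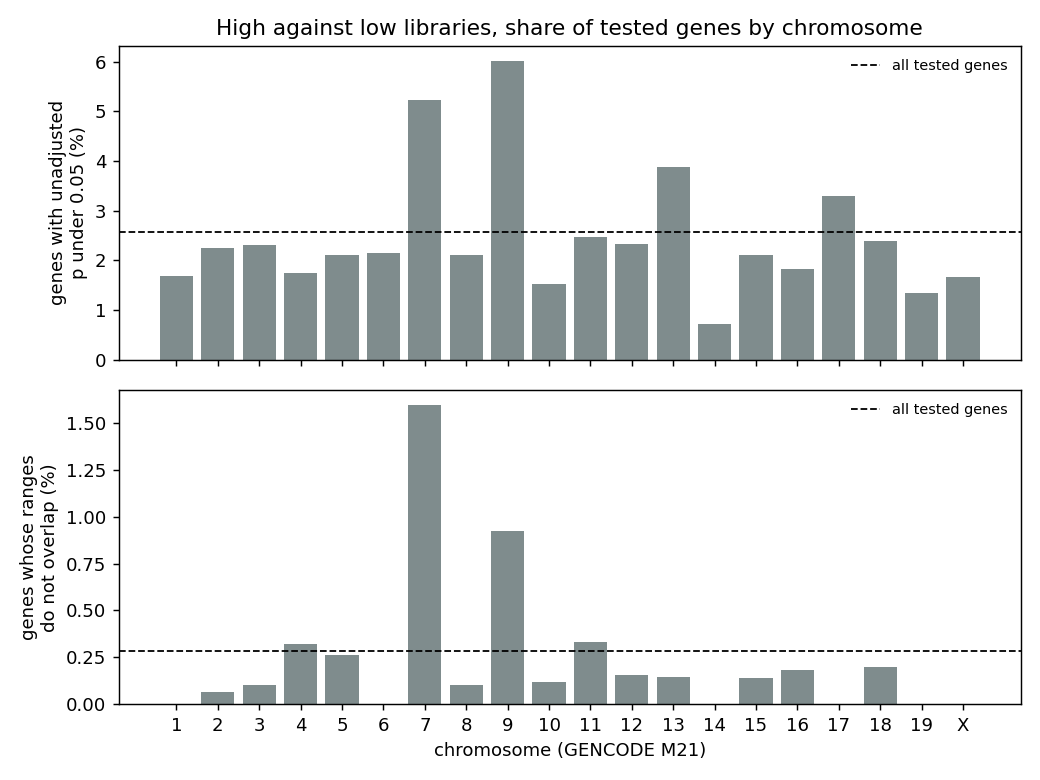
Share of tested genes (%) on each chromosome with an unadjusted p under 0.05 (upper bars) and with CPM ranges that do not overlap between the 5 high and 7 low libraries (lower bars), for the autosomes and X; dashed lines are the shares over all tested genes, 2.58% and 0.282%. Of the chromosomes drawn, 7 and 9 have the tallest bars in both.

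On both chromosomes a part of these genes lay close together. In the order of GENCODE M21, the first 300 tested genes of chromosome 7 (from Gm7353 to Zfp607a) held 41 of the 72 genes with an unadjusted p under 0.05 (13.7% of 300), against 31 of the other 1080 (2.87%). They held 17 of the 22 genes without overlap, the marker Cacng6 included, and all 3 genes called on that chromosome other than the markers, while Gm17511 lies far from them, 1164 tested genes after Cacng6. The 41 were evenly split, 20 higher and 21 lower. On chromosome 9, the tested genes ranked 201 to 500 (from Robo4 to Clpx) held 33 of 65 (11% of 300), against 32 of the other 781 (4.10%), and 8 of the 10 genes without overlap. Outside both stretches the share was 2.26% of 18545 genes. The limits of both stretches were chosen after the values were seen. Among 190 blocks of up to 100 consecutive tested genes over the autosomes and X, the median number with an unadjusted p under 0.05 was 2, the highest was 21 (chromosome 7, within its first 300 tested genes), and the next were 13 and 11 (chromosome 9, from 2900052N01Rik to Snupn and from Ptpn9 to Clpx). Blocks with 10 came next, on chromosome 7 from Gm7353 to Zscan22 and from Apoc1 to Zfp607a, and on chromosome 9 from Hcrtr2 to Gm5620. The block from Hcrtr2 to Gm5620 lies outside the stretch described. Rplp1 is itself the gene ranked 463 on chromosome 9.

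**Figure D3:**
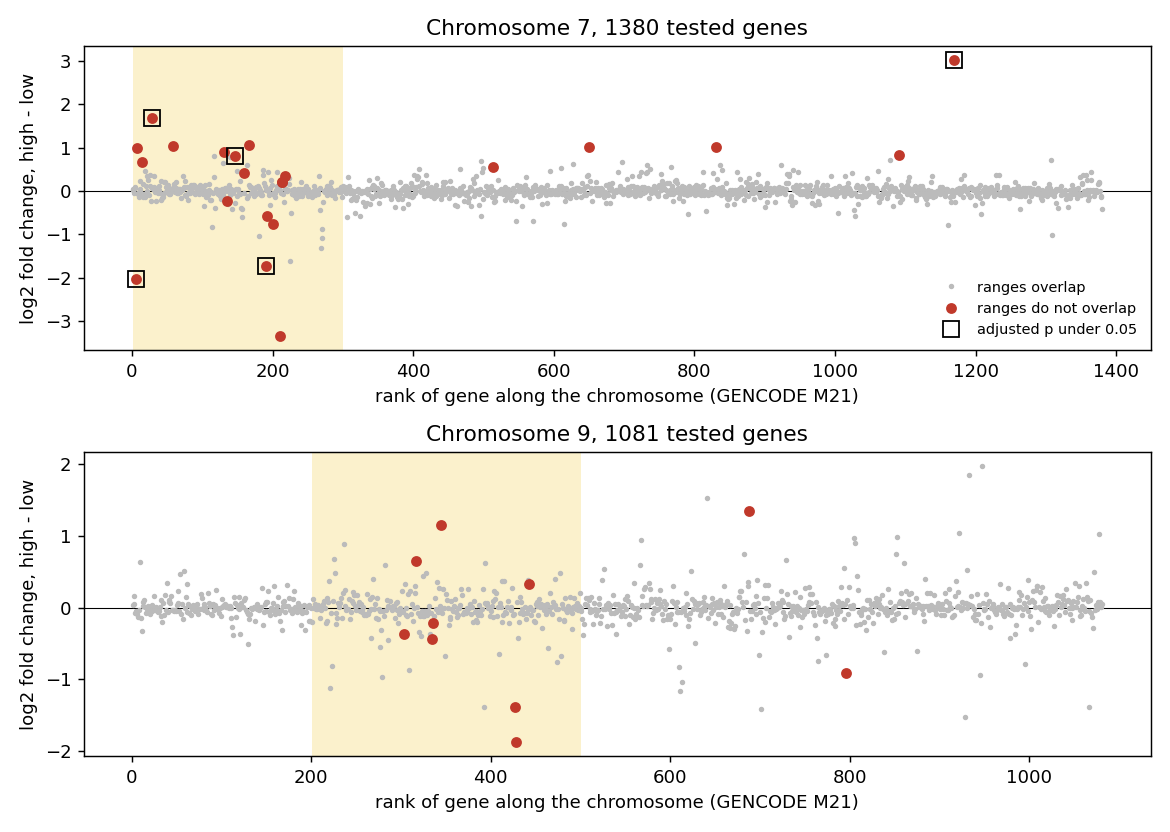
Log2 fold change, high minus low, of every tested gene against its rank along chromosome 7 (upper) and chromosome 9 (lower); grey points are genes whose ranges overlap, red points genes whose ranges do not, black squares genes with adjusted p under 0.05, and yellow bands the stretches of 300 genes described. Red points gather within the bands, 17 of 22 on chromosome 7 and 8 of 10 on chromosome 9, both above and below 0.

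Cacng6 is ranked 6 on chromosome 7, directly after its paralogs Cacng7 and Cacng8, which encode regulatory proteins of AMPA-type glutamate receptors. Those 2 overlapped between the groups: Cacng7 was 134 to 177 CPM in high and 112 to 165 CPM in low libraries, and Cacng8 was 23.9 to 31.4 CPM in high and 20 to 31.4 CPM in low libraries. The next gene after Cacng6 is Oscar, which encodes a collagen-binding immunoglobulin-like receptor, at 0.944 to 1.42 CPM in high and 0.417 to 0.707 CPM in low libraries (log2 difference 1.0 ± 0.18 SE, adjusted p = 0.132). Tmc4, a transmembrane channel-like gene 8 tested genes after Cacng6, was 1.16 to 1.71 CPM in high and 0.586 to 1.12 CPM in low libraries (adjusted p = 0.746). Neither passed the test, although neither overlapped. Of the 25 tested genes within 20 ranks of Cacng6 (5 before it and 20 after), 5 had an unadjusted p under 0.05 (2.58% over all tested genes) and none was called.

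Further into the same stretch, Sae1, which encodes a subunit of the SUMO-activating enzyme, was the gene just outside the threshold. It had 83.1, 79.0, 81.1, 78.3 and 80.8 CPM in the high libraries and 89.1 to 94.7 CPM (median 92.1) in the low ones, a small but tight log2 difference of -0.22 ± 0.04 (SE, adjusted p = 0.0721). Both groups kept within a narrow band and did not overlap. Ccdc61, a gene for a centriole and basal body protein, was 6.03 to 7.22 CPM in high and 4.18 to 5.10 CPM in low libraries (adjusted p = 0.150). Trappc6a, a subunit of the TRAPP vesicle-tethering complex, was 5.50 to 6.08 CPM in high and 6.52 to 10.3 CPM in low libraries (adjusted p = 0.277). Apoc1, which encodes apolipoprotein C1, was 0.926 to 1.56 CPM in high and 1.65 to 2.42 CPM in low libraries (adjusted p = 0.373). These 3 did not pass the test, and the directions differ between neighbours.

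The zinc finger gene Zfp180 was 59.0 to 63.4 CPM in high and 47.9 to 55.8 CPM in low libraries (adjusted p = 0.277), and its near neighbours Zfp112 and Zfp109 also lay higher without overlap (adjusted p = 0.999 and 0.598). Gm16251, annotated as antisense, had 0, 1, 5, 2 and 0 reads in PBS male 1 and 2 and collagen domain male 1, 2 and 3, and 9 to 34 reads in each low library (adjusted p = 0.140). It was the gene of this stretch nearest to no reads in the high group. The library kit, TruSeq version 2, does not mark strand, so reads of an antisense gene and its partner cannot be told apart.

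**Figure D4:**
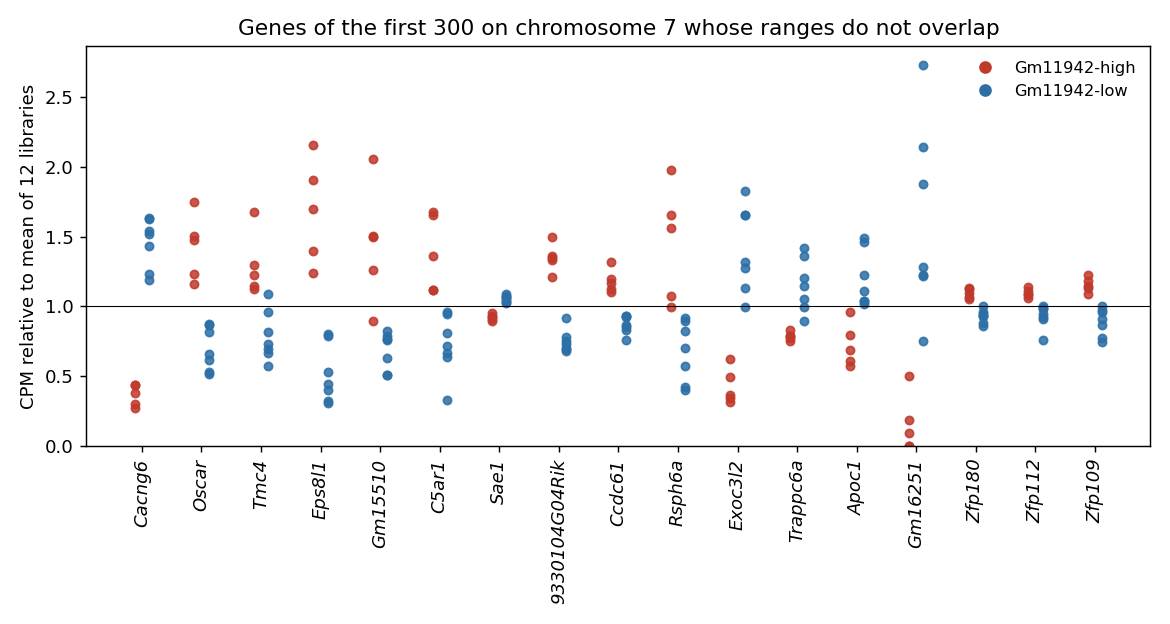
CPM of each library relative to the mean of the 12 libraries (1 on the axis) for the 17 genes among the first 300 tested on chromosome 7 whose ranges do not overlap, in chromosome order; red points are the 5 high and blue points the 7 low libraries. Of these genes, 11 are higher and 6 lower in the high libraries, and Sae1 has the narrowest spread, while Gm16251 comes closest to 0.

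On chromosome 9, where no gene was called, Neo1 was among the 10 genes without overlap. It encodes neogenin, a receptor for netrins and repulsive guidance molecules, and was 98.0 to 121 CPM in high and 69.8 to 95.4 CPM in low libraries (log2 difference 0.33 ± 0.08 SE, adjusted p = 0.721). The gene 1110032A03Rik was 16.6 to 21.8 CPM in high and 23.2 to 28.9 CPM in low libraries (adjusted p = 0.20). Ttc12, which takes part in the assembly of ciliary dynein, was 4.33 to 7.60 CPM in high and 2.56 to 4.16 CPM in low libraries (adjusted p = 0.814). Alg9, a mannosyltransferase of N-glycan assembly, was 14.4 to 17.2 CPM in high and 17.2 to 18.3 CPM in low libraries (adjusted p = 0.783), so its groups all but touch. Next to each other at ranks 427 and 428, Gm17322 was 0.755 to 2.95 CPM in high and 4.45 to 6.21 CPM in low libraries, and Cyp11a1, the enzyme of the first step of steroid synthesis, was 0 to 1.06 CPM in high and 1.12 to 2.10 CPM in low libraries (adjusted p = 0.576 and 0.999). Neither overlapped between the groups, and Rplp1 follows them at rank 463.

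Gm11942 is ranked 105 on chromosome 4. None of the 20 tested genes nearest to it (10 on each side, from Manea to Gm12751) was called, had an unadjusted p under 0.05 or separated the groups, and their log2 differences ran from -0.16 to 0.17 with a median of 0.00. With 5 or 20 genes on each side the counts were also 0. Farther out, at rank 75, Nkain3, a gene for a protein that interacts with the sodium pump, was 5.17 to 7.03 CPM in high and 3.25 to 5.06 CPM in low libraries, without overlap (adjusted p = 0.999). Of the tested genes ranked 1 to 100 on chromosome 4, 2 had an unadjusted p under 0.05, and of the next 100 only Gm11942 itself did. The 3 nearest on one side were Mdn1, a ribosome assembly ATPase, Lyrm2, a LYR-motif protein, and Ankrd6, an ankyrin repeat protein, at log2 differences of 0.12, -0.09 and 0.06. Cnr1, the brain's main cannabinoid receptor and also among the 20, was at -0.10 (adjusted p = 0.999 for all 20). Of the 40 tested genes nearest to Gm17511, 2 (5.0%) had an unadjusted p under 0.05.

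The 8 genes whose log2(CPM + 1) was most like that of Gm11942 over the 12 libraries, by absolute Pearson correlation among 19144 tested genes, were Gm17511 (r = 0.97), Cacng6 (-0.96), Sae1 (-0.96), 9330104G04Rik (0.95), Gm11677 (-0.95), Exoc3l2 (-0.92), Ccdc61 (0.91) and Crip1 (-0.90). Since the libraries fall into 2 clusters of Gm11942, these values mainly restate the separation of the groups, and they are given without a test. Of the 8 genes, 6 lie on chromosome 7, which holds 1380 of the 19145 tested genes. Among these 6, Gm17511 and Cacng6 are markers of the split, so their place in the list is no result. Crip1, a LIM-domain gene on chromosome 12, was 2.51 to 2.93 CPM in the high and 3.29 to 3.87 CPM in the low libraries (adjusted p = 0.277).

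A list of 14 genes known to differ in level or structure between inbred mouse strains, 11 of them tested, was read because the grouping could bear on genetic background. None was called, and 1 of the 11 (Nnt) had an unadjusted p under 0.05, against 2.58% of all tested genes. Nnt, a mitochondrial transhydrogenase that carries a deletion in one widely used substrain, was 22.4 to 27.5 CPM in high and 22.3 to 33.4 CPM in low libraries (log2 difference -0.24, adjusted p = 0.999). The median log2 difference of the list was 0.00, against -0.01 over all tested genes.

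Members of that list did vary widely between libraries, but across the split, not along it (Pttg1 and Alad were chosen after their values were seen). Pttg1, which encodes securin, an inhibitor of sister chromatid separation, had 0.399, 12.4, 0.401, 0.590 and 14.5 CPM in PBS male 1 and 2 and collagen domain male 1, 2 and 3. In the low libraries it had 29.0, 12.3 and 0.363 CPM in PBS female 1, 2 and 3, 0.637 in PBS male 3, and 0.365, 11.4 and 12.1 in collagen domain female 1, 2 and 3. Values under 1 CPM, values of 11.4 to 14.5 CPM and the single value of 29.0 CPM left gaps between them, and both groups held the first and the second kind. Alad, the enzyme of the second step of heme synthesis, was 27.1 and 33.0 CPM in PBS male 1 and collagen domain male 2 of the high group, and 32.7 and 27.1 CPM in collagen domain female 2 and 3 of the low group. In the other 8 libraries it was 13.7 to 16.6 CPM. High values of Alad were thus found in both groups. They stood beside Pttg1 under 1 CPM in both high libraries and beside Pttg1 at 11.4 and 12.1 CPM in both low libraries.

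**Figure D5:**
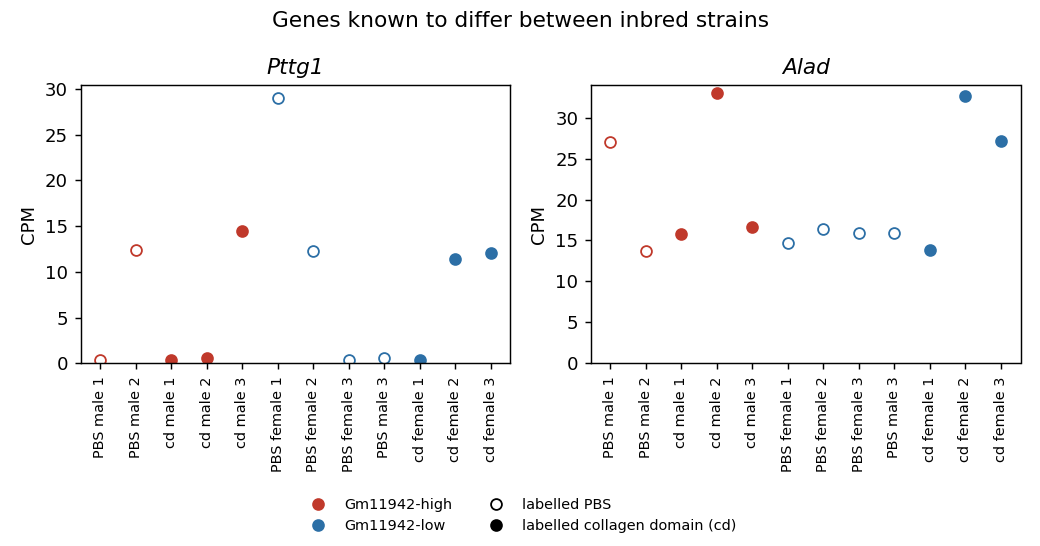
CPM of Pttg1 and Alad in each of the 12 libraries, 1 point per library; red points are the high and blue points the low libraries, open points are labelled PBS and filled points collagen domain (cd). Pttg1 is under 1 CPM in some libraries of each group and 11.4 CPM or more in others, and Alad is 27.1 CPM or more in 2 high and 2 low libraries.

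Over the 23 gene lists read, which cover receptor and channel families, brain cell types and regions, 253 members were tested. None was called apart from Cacng6, a marker and so no result here. An unadjusted p under 0.05 was found for 14 members, Cacng6 included (5.53%), against 2.58% of all genes. In the family of 11 calcium channel gamma subunits and AMPA receptor auxiliary proteins, the 10 members other than Cacng6 had log2 differences from -0.07 to 0.34 and none was called. All 15 tested markers of cerebellum and hindbrain lay below 0 (median log2 difference -0.67, none called), for example Neurod1 at -0.62 (8.35 to 51.7 CPM in high and 7.49 to 46.2 CPM in low libraries). Of the 5 libraries of high hindbrain score, 1 was high and 4 low, and the cause of that difference was not tested. Fits with the score as a covariate and without those libraries are given below. They cannot isolate the part of tissue, since the score is the mean of these same markers and leaving those libraries out removes 4 low ones. All 10 markers of meninges and fibroblasts also lay below 0 (median -0.33, 5 with an unadjusted p under 0.05, none called), led by the matrix genes Ogn (-0.38), Mgp (-0.64) and Dcn (-0.44). Of 6 red cell genes 5 lay above 0 (median 0.38, 3 with an unadjusted p under 0.05, none called), led by Alas2, the erythroid enzyme of heme synthesis (0.48), and the globin gene Hba-a1 (0.42). Smaller differences to one side were seen in other lists: 10 of 10 striatum and 13 of 14 hypothalamus markers lay above 0 (medians 0.19 and 0.23), and all 15 nuclear oxidative phosphorylation genes and all 12 cytosolic ribosomal protein genes lay below 0 (median -0.09 for each), with none called. Of 14 microglia markers 8 lay above 0 (median 0.05, none called). An unadjusted p under 0.05 was found for 2 of them, Cx3cr1 (0.22) and P2ry12 (0.16), whose groups overlapped. The hindbrain, meninges and red cell lists each overlapped between the groups in mean log2(CPM + 1): 1.76 to 5.06 in high and 1.82 to 4.86 in low libraries for hindbrain, 3.30 to 3.59 and 3.32 to 3.95 for meninges, and 5.13 to 5.80 and 4.71 to 5.60 for red cells. Their part in the results above was not tested, and of these lists only the hindbrain score was used in other fits.

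With the hindbrain score as a covariate, 10 genes were called, 6 of them among the 7, and the share of the first 300 genes of chromosome 7 with an unadjusted p under 0.05 was 14.7%, against 3.07% of all genes in that fit. Without the 5 libraries of high score, 5 genes were called, and of the 7 only the 3 markers were among them. 9330104G04Rik, Exoc3l2, Gm11677 and Eps8l1 all missed the threshold there, and the other calls were Gm11868 and Mns1. The share on chromosome 7 was then 15.1%, against 4.82% of all genes in the same fit. With the 5 libraries against a label left out, no gene was called other than the markers Gm11942 and Cacng6, and the share was 7.67% on chromosome 7 and 8.0% on the stretch of chromosome 9, against 2.63% of all genes. All 4 called genes other than the markers kept their direction in these fits and missed the threshold without the libraries against a label (adjusted p = 0.780 for 9330104G04Rik and Gm11677, and 0.956 for Exoc3l2 and Eps8l1).

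Read by the labels, no gene was called for collagen domain against PBS (0% of 19145, 354 or 1.85% with an unadjusted p under 0.05, and none by DESeq2 or limma-voom) or for male against female (0%, 377 or 1.97%, 8 by DESeq2 and none by limma-voom). The 8 genes called by DESeq2 for sex were the 3 markers, 9330104G04Rik, Exoc3l2, Eps8l1, Hbb-bs and Hbb-bt. Both labelled fits share all 12 libraries with the comparison of high and low. In male against female, where 5 of 6 against 0 of 6 libraries were high, the log2 differences were 0.73 for 9330104G04Rik, 1.45 for Eps8l1, -1.51 for Exoc3l2 and -0.86 for Gm11677 (adjusted p = 0.727, 1.0, 0.727 and 1.0). In the treatment fit they were 0.10, 0.55, -0.12 and -0.24 (adjusted p = 1.0 for each). Of the first 300 tested genes of chromosome 7, 33 (11%) had an unadjusted p under 0.05 in male against female and 7 (2.33%) in collagen domain against PBS. Labelled sex and the Gm11942 state overlap so far that only PBS male 3 separates them. That library also stood apart in App, Cst7 and Clec7a, and with labelled sex as a covariate 16 genes were called between the states, these 3 included, and 3 of the 7 (the markers). In that fit 28% of the first 300 genes of chromosome 7 and 19.7% of the chromosome 9 stretch had an unadjusted p under 0.05, against 19.1% of all genes. In libraries labelled male alone (5 high against PBS male 3) the shares were 30.8% and 28.4%, against 23.9% of all genes. In libraries labelled PBS alone they were 7.24% and 4.14%, against 3.05%. The chromosome 9 stretch thus lay close to the share of all genes in the fits with labelled sex and with PBS libraries alone.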

How the data were processed

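Poly(A) RNA libraries (TruSeq RNA version 2, paired reads of 75 bases, NextSeq 500, per the labels' protocols) were deposited by the authors as raw counts of reads for each Ensembl ID. The GRCm39 build, DESeq2 and STAR are named in the submitters' processing notes. The counting tool, its handling of strand and of reads with several matches, and the annotation release are not given in the sources used here. Of 43629 gene IDs, 42462 took a symbol and chromosome from GENCODE M21 (GRCm38), used for names and gene order only, so no coordinates are given. The other 1167 held 0.144% of reads.

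CPM values are reads divided by the library total and multiplied by 1000000, and Gm11942 at 10 CPM set the groups. The members, gene lists and tests were chosen with earlier results of these data known. The test was edgeR 4.0.16 in R 4.3.3 (filterByExpr on the 4 labelled groups, TMM, robust quasi-likelihood F-test, two-sided, Benjamini-Hochberg, threshold 0.05), without covariates for the Gm11942 state and with labelled sex and treatment together for the labelled comparisons. The script was tested on simulated counts. Named genes were the 3 markers, up to 12 called in each direction, the 10 tested on each side of Gm11942, the 8 most correlated, and up to 3 of smallest p per list described. Some genes called only in other fits are also named. Genes of chromosomes 7 and 9, the 2 stretches, and App, Cst7, Clec7a, Pttg1 and Alad were chosen after their values were seen. Transcripts were compared with blastn 2.17.0. Their sequences are not reported here. Over all 66 pairs of libraries, chi-square per degree of freedom was 7.00 to 109, so none repeated another. Alternatives were DESeq2 1.42.0, limma-voom (limma 3.58.1), other scaling, filters, thresholds and splits, covariates, a replicate block and leaving libraries out. Libraries of 39272127 to 52323985 reads limit the precision most for genes under 1 CPM.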

Additional observations from a re-analysis of the deposited data

Results flagged for a closer look

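In the library labelled PBS male 3, 3 genes stood apart from the other 6 low libraries by Dixon's criterion, a gap to the nearest value that is large against the group's range. App, the amyloid precursor protein gene, was 2449 CPM there and 1273 to 1517 CPM in the others. Cst7, a cysteine protease inhibitor of activated microglia, was 7.61 CPM against 0.0228 to 0.268 CPM, and Clec7a, a receptor also raised in activated microglia, was 2.90 CPM against 0.205 to 0.417 CPM. The library is the only low one labelled male, so every comparison of the states within labelled males or adjusted for labelled sex rests on it.

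C1qtnf3 was 107.5 CPM in collagen domain female 2 and 0.187 to 22.3 CPM in the other low libraries. Pttg1 was 29.0 CPM in PBS female 1 and 0.363 to 12.3 CPM in the other low libraries. Neurod1, a cerebellar granule cell gene, was 51.7 CPM in collagen domain male 2 and 8.35 to 11 CPM in the other high libraries. Of 88 groups checked (44 named genes in each state), 6 met the criterion. Chance gives about 1 in 20 for genes not chosen by their values, a rate that does not apply here, since App, Cst7, Clec7a and Pttg1 were chosen after their values were seen.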

How the results depend on the processing

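The count of 7 genes called between the states was 22 with DESeq2 (11 higher and 11 lower, all 7 among them), 16 with labelled sex as a covariate, 3 with labelled sex and treatment, 2 in libraries labelled PBS, 1 (App) in libraries labelled male, and 2 without the 5 libraries against a label, a setting added after the data were seen. Leaving out 1 library at a time gave 4 to 9, with 4 without PBS male 1. The labelled treatment comparison went from 0 to 2 genes, and the labelled sex comparison from 0 to 8, without the same 5 libraries. The 2 were C1qtnf3 and Igkv3-12, and the 8 were Kdm5d, Ddx3y, Uty, Eif2s3y, Cldn34c1, Xist, Cldn34c2 and Gm29650. Those libraries were left out by their Xist, Ddx3y and C1qtnf3 reads, so the calls of these genes were largely fixed by that choice. With all libraries, DESeq2 called 8 in the sex comparison: Gm11942, Cacng6, Gm17511, 9330104G04Rik, Exoc3l2, Eps8l1, Hbb-bs and Hbb-bt. Leaving out 1 library gave 0 throughout for treatment and 0 to 5 for sex, with 5 without PBS male 3. Those 5 were Gm11942, Cacng6, Gm17511, 9330104G04Rik and Exoc3l2. Without PBS male 3, labelled sex and the Gm11942 state are the same split, so these calls restate the comparison of high and low. Beyond this, the cause of the shifts in these counts was not tested. The other settings (no filter, limma-voom, relative log expression factors, 1 CPM in 5 libraries, a threshold of 0.1, splits at 5 and 20 CPM, labelled treatment, Xist or hindbrain score as covariate) gave 5 to 10 genes for the state. The splits at 5 and 20 CPM gave the same groups, and the threshold of 0.1 reused the main fit, so these settings could not lose a call. They are nevertheless counted among the 29 or 30 alternatives of each gene. No called gene changed direction in any alternative. 9330104G04Rik lost its call in 6 of 30, Exoc3l2 in 7 of 29, Gm11677 in 8 of 29 and Eps8l1 in 16 of 30.

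Replicate numbers showed no clear pairing of the libraries. Deviations of same-numbered libraries correlated at -0.38 to 0.57 over 18 pairs (median -0.04). Those of other numbers correlated at -0.54 to 0.48 over 36 (median -0.03). The highest value joined collagen domain male 2 and collagen domain female 2, both of high hindbrain score, so the check cannot exclude pairing. With the replicate block 5 genes were called between the states, 5 of the 7, and 0 in both labelled comparisons. Gm11677 and Eps8l1 then missed the threshold (adjusted p = 0.0576 and 0.0729). With 5 against 7 libraries and genes at 3 to 97 reads, differences of low genes such as Gm17511 are the least precise.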
